A study of Mus musculus with 6 samples.

Results

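Lipoxygenase and leukotriene transcripts were examined in whole epididymis of adult male mice, in 3 WT (C57BL/6) libraries and 3 libraries of Ocln-/- animals on the same strain label (Ocln-KO), 6 in all. The 10 genes were chosen by symbol from the 57127 genes of the count table, and all 10 were listed: Alox5, Alox5ap, Alox12, Alox15, Alox12b, Aloxe3, Lta4h, Ltc4s, Cysltr1 and Ltb4r1. The knockout targets occludin, a tight junction protein, in the whole animal, so every cell type of the epididymis carries it, and none of the libraries separates the epithelium from other cells. According to the methods, RNA was extracted separately for 3 WT and Ocln-KO pairs, yet the libraries are said to come from pooled RNA, so n counts libraries here, and p-values measure the spread between libraries.

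Lipoxygenases add oxygen to arachidonic acid and related fatty acids. In the leukotriene branch, arachidonic acid released from membranes by cytosolic phospholipase A2 is handed by the membrane protein FLAP (Alox5ap) to arachidonate 5-lipoxygenase (Alox5), which makes leukotriene A4. Leukotriene A4 hydrolase (Lta4h) turns this into leukotriene B4, an attractant of white blood cells, and leukotriene C4 synthase (Ltc4s) joins it to glutathione to begin the cysteinyl leukotrienes. Myeloid cells and mast cells are the best known sources of both.

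None of the 10 genes passed the test between genotypes. Each library was scaled to CPM (counts in each 1e6, after edgeR's TMM factors). The edgeR adjusted p values below come from its quasi-likelihood F-test and were adjusted by Benjamini-Hochberg across the 19691 genes abundant enough to be tested. Of the 10 genes, 7 were abundant enough, and 0 of the 7 had an adjusted p under 0.05, while 2 had an unadjusted p under 0.05, Ltb4r1 and Aloxe3. Over all 19691 tested genes, 8.95% had an adjusted p under 0.05, and 5723 genes had an unadjusted p under 0.05. With DESeq2, which the study also used, Ltb4r1 was higher and Aloxe3 lower in Ocln-KO at an adjusted p under 0.05. The study further required a fold change over 2 in either direction, which was not required here. The DESeq2 log2 fold changes were 0.78 for Ltb4r1 and -1.15 for Aloxe3. Over all 19691 tested genes DESeq2 called 3312. With limma-voom, 0 of the 7 were called, and 1779 genes over all tested. Fold changes (log2) were above 0 for 5 of the 7 and below 0 for Ltc4s and Aloxe3, with a median of 0.41 against 0.01 over all tested genes. The median of the 7 fell to 0.10 without Ocln-KO replicate 3. Relative to the WT mean, the median log2 level of the 7 was -0.25, 0.17 and 0.88 in Ocln-KO replicates 1 to 3. WT and Ocln-KO libraries held separate ranges for 4 of the 7, of which Lta4h, Cysltr1 and Ltb4r1 were higher and Aloxe3 was lower, while over all tested genes 36.3% did not overlap.

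**Figure D1:**
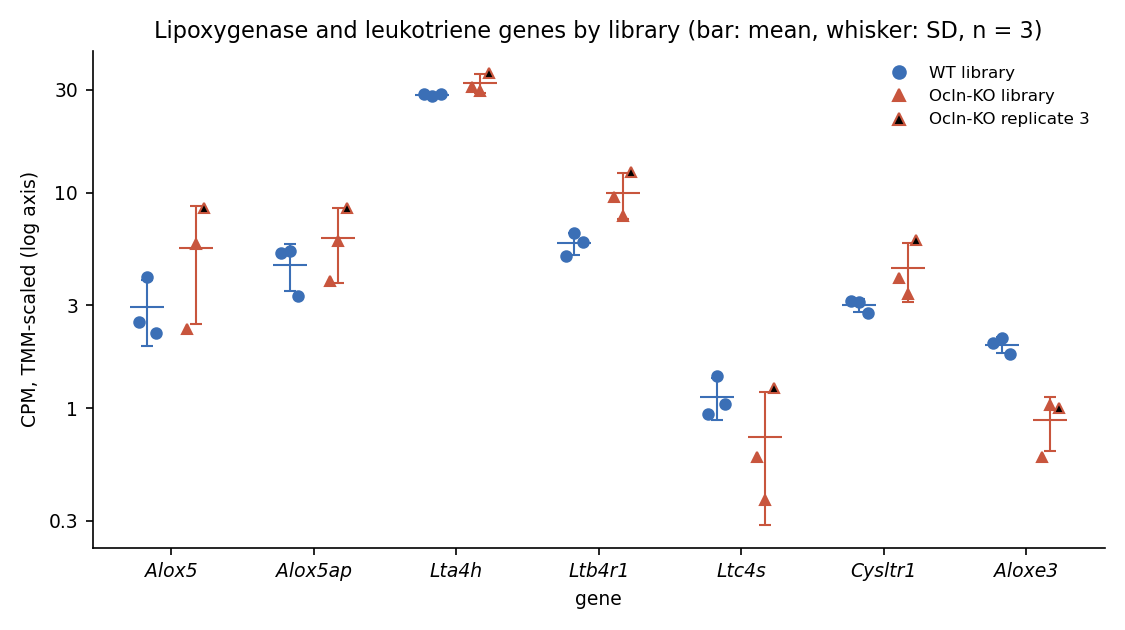
CPM on a log axis of the 7 tested genes in each WT (circles) and Ocln-KO (triangles) library, with the mean and SD of the 3 libraries of each genotype and Ocln-KO replicate 3 filled black. The Ocln-KO points of Aloxe3 all lie below its WT points, those of Ltb4r1 and Cysltr1 all lie above, and those of Alox5 and Alox5ap spread across the WT range.

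The libraries held between 30646424 and 38870780 counts, so 1 count equals between 0.0267 and 0.0314 CPM. Ocln, the targeted gene, lay between 78.8 and 91.8 CPM in the WT libraries and between 14.9 and 15.3 CPM in the knockouts (log2 fold change -2.50, edgeR adjusted p = 0.000108). The epididymal transcripts Crisp1 and Lcn5 were abundant in all 6 libraries, at 4439 CPM or more for Crisp1 and 2479 CPM or more for Lcn5, although an extraction text in the sample records names a brain region. On the first principal component of log2 CPM, Ocln-KO replicate 3 lay at 80.6, the other Ocln-KO libraries at 17.6 and 28.7 and the WT libraries between -50.9 and -35.0. Its summed sperm and spermatid markers were at 111 CPM, against 336 to 463 CPM in the other 5 libraries. The fold change of each of the 7 tested genes is therefore also given without it. Gapdh, at 9.92 ± 1.46 CPM in WT (SD, n = 3), and the epididymal genes Lcn8 and Rnase10, at 1.76 ± 0.849 and 0.0667 ± 0.0691 CPM in WT (SD, n = 3 each), were chosen after their values were seen. They are few counts for transcripts usually abundant in such tissue, so a low count in this table cannot be read as a low transcript level without reserve, and levels of different genes carry that limit.

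Compared per length, in CPM per kilobase of exon in WT, Lta4h stood highest among the 7 at 4.67 ± 0.0571, followed by Ltb4r1 at 4.18 ± 0.494 and Alox5ap at 3.26 ± 0.803 (SD, n = 3 each). Ltc4s followed at 1.12 ± 0.242, Alox5 at 0.716 ± 0.241, Cysltr1 at 0.586 ± 0.0403 and Aloxe3 at 0.307 ± 0.0266 CPM per kilobase (SD, n = 3 each). In this order the ranges over the 3 WT libraries overlapped between neighbours except between Alox5ap and Ltc4s and between Cysltr1 and Aloxe3. FLAP therefore had more CPM per kilobase than its partner enzyme Alox5 in every WT library, with Alox5ap at 2.33 or more and Alox5 at 0.992 or less.

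Alox5 lies on chromosome 6 from 116410077 to 116461178 (minus strand, GRCm38, GENCODE M21). WT replicates 1 to 3 had 2.51, 4.07 and 2.24 CPM of it, and Ocln-KO replicates 1 to 3 had 2.34, 5.78 and 8.52 CPM. Ocln-KO replicate 1 lay inside the WT range and the other Ocln-KO libraries above it. Its means were 2.94 ± 0.991 CPM for WT and 5.55 ± 3.10 CPM for Ocln-KO (SD, n = 3 each). This is a log2 fold change of 0.92 with a standard error of 0.46 and a 95% interval from -0.15 to 1.98 (edgeR adjusted p = 0.231). The difference was within the spread between the Ocln-KO libraries. Without Ocln-KO replicate 3 the log2 fold change was 0.47 (edgeR adjusted p = 0.512), and without Ocln-KO replicate 1 it was 1.29 (edgeR adjusted p = 0.0570).

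Alox5ap, which encodes FLAP, lies on chromosome 5 from 149264767 to 149288153 (plus strand). In the order of the replicates, WT libraries had 5.24, 5.33 and 3.31 CPM, and Ocln-KO libraries had 3.90, 5.99 and 8.52 CPM. As for Alox5, Ocln-KO replicate 1 was the lowest Ocln-KO library and replicate 3 the highest, and the genotypes overlapped. Alox5ap had a log2 fold change of 0.41 (standard error 0.32, 95% interval from -0.34 to 1.16, edgeR adjusted p = 0.449). It was 0.10 without Ocln-KO replicate 3, 0.22 without WT replicate 3 and 0.66 without Ocln-KO replicate 1. An antisense gene, Gm19719, covers 13.3% of the exon bases of Alox5ap. The library kit keeps the strand, but the strand setting of the counting is not given in the sources used here, so reads of Gm19719 may be among those of Alox5ap.

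Lta4h, on chromosome 10 from 93453411 to 93484875 (plus strand), was the most abundant of the 7 in CPM per kilobase in WT. WT libraries had 28.6, 28.1 and 28.8 CPM, against 30.9, 29.7 and 35.8 CPM for Ocln-KO. Each Ocln-KO library lay above each WT library, but by little, and Lta4h did not pass the test. Its log2 difference of 0.17 (standard error 0.10, 95% interval from -0.06 to 0.40, edgeR adjusted p = 0.301) has an interval that reaches from 0.959 to 1.32 of the WT level. Leaving out Ocln-KO replicate 3 gave 0.09.

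Ltc4s, on chromosome 11 from 50236461 to 50238616 (minus strand), had few counts, between 12 and 48 per library. WT libraries held 0.936, 1.41 and 1.05 CPM, against 0.592, 0.377 and 1.24 CPM for Ocln-KO. Ocln-KO replicates 1 and 2 lay below the WT libraries and Ocln-KO replicate 3 among them. For Ltc4s the log2 fold change was -0.61 (standard error 0.50, 95% interval from -1.77 to 0.55, edgeR adjusted p = 0.463). Without Ocln-KO replicate 3 it was -1.22 (edgeR adjusted p = 0.151), and without Ocln-KO replicate 2 it was -0.29 (edgeR adjusted p = 0.751). The antisense gene Gm26542 covers 26.4% of the exon bases of Ltc4s, with the same limit as for Alox5ap.

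The receptors were both higher in each Ocln-KO library. Ltb4r1 encodes BLT1, the high-affinity receptor of leukotriene B4 on white blood cells, and lies on chromosome 14 from 55765962 to 55768494 (plus strand). The WT libraries held 5.11, 6.48 and 5.90 CPM, and the Ocln-KO libraries held 9.57, 7.75 and 12.4 CPM. The lowest Ocln-KO library was thus above the highest WT library. Means were 5.83 ± 0.688 CPM for WT and 9.92 ± 2.36 CPM for Ocln-KO (SD, n = 3 each), the latter 1.70 times the WT level. The log2 fold change of 0.77 (standard error 0.21, 95% interval from 0.27 to 1.26) had an edgeR adjusted p of 0.0630 and did not pass. With DESeq2 the adjusted p was 0.0125, with scaling by total counts alone 0.0488, and over the 13 alternatives it ran up to 0.193. Leaving out Ocln-KO replicate 3 gave 0.57 (edgeR adjusted p = 0.107).

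Ltb4r2, the neighbouring gene for the low-affinity receptor BLT2, was not among the 10 genes but stands beside Ltb4r1 in the genome. It ends 823 bases before the start of Ltb4r1 on the same strand, and no exon bases of the pair overlap in GENCODE M21. WT libraries had 5.27, 6.01 and 7.41 CPM of Ltb4r2 and Ocln-KO libraries 9.60, 8.29 and 12.0 CPM, again without overlap and with Ocln-KO replicate 3 highest. Ltb4r2 had a log2 fold change of 0.68 (95% interval from 0.20 to 1.15, edgeR adjusted p = 0.0791), and an adjusted p of 0.0273 with DESeq2. Sequence from between the pair is shown because both neighbours were higher in each Ocln-KO library than in any WT library. Of all tested genes, 16.9% were higher in this way. The sequence lies after the end of Ltb4r2 and does not include the start of that gene. These are the 250 bases before the start of Ltb4r1 (chr14:55765712-55765961, plus strand, GRCm38.p6, RefSeq), with the GC box, GGGCGG or its reverse complement CCGCCC, in capitals:

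Ltb4r1: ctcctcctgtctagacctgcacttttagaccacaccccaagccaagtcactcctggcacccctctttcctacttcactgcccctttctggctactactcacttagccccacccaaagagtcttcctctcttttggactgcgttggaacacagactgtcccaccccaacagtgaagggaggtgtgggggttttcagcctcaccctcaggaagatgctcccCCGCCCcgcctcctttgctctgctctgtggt

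The window holds 1 GC box and 56.8% G and C. Of the 32851 windows of the same length in the RefSeq promoter table, 32.7% hold at least 1 GC box on either strand, and the median GC content is 52.4%. A match of these letters is a description and not evidence of binding. Of the 10 genes, 6 had an entry in that table.

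Cysltr1 encodes a receptor of the cysteinyl leukotrienes and lies on chromosome X from 106574346 to 106603679 (minus strand). WT libraries held 3.15, 3.11 and 2.77 CPM, against 4.02, 3.39 and 6.01 CPM for Ocln-KO. The genotypes did not overlap, although Ocln-KO replicate 2 was close to the WT libraries. For Cysltr1 the log2 fold change was 0.57 (standard error 0.27, 95% interval from -0.05 to 1.19, edgeR adjusted p = 0.203), and 0.30 without Ocln-KO replicate 3. Cysltr2, the other receptor of this class, was too scarce to be tested, with 3, 3 and 5 counts in WT and 6, 22 and 18 counts in Ocln-KO. With no count filter its edgeR adjusted p was 0.143.

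Aloxe3 was lower in each Ocln-KO library than in any WT library. It encodes epidermal lipoxygenase eLOX3, which acts on the product of 12R-lipoxygenase (Alox12b) and is known for its part in the skin barrier. Aloxe3 lies on chromosome 11 from 69125896 to 69149115 (plus strand), near Alox12b, and no exon of another gene overlaps its exons in GENCODE M21. WT libraries held 2.005, 2.11 and 1.78 CPM, from 66 to 75 counts, whereas Ocln-KO libraries held 0.592, 1.04 and 1.01 CPM, from 19 to 34 counts. The highest Ocln-KO library was thus below the lowest WT library. Means were 1.96 ± 0.170 CPM for WT and 0.878 ± 0.248 CPM for Ocln-KO (SD, n = 3 each), the latter 0.448 of the WT level. The log2 fold change of -1.16 (standard error 0.34, 95% interval from -1.95 to -0.37) had an edgeR adjusted p of 0.0734 and did not pass. With DESeq2 the adjusted p was 0.0346, and over the 13 alternatives the log2 fold change stayed between -1.29 and -0.94. Without Ocln-KO replicate 3 it was -1.27 (edgeR adjusted p = 0.0834), so that, unlike Alox5, the difference was not smaller without that library.

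The remaining lipoxygenases, 3 of the 10 genes, were too scarce to be tested. Alox12, the platelet-type 12-lipoxygenase (chromosome 11, 70241457 to 70255353), had 8, 2 and 8 counts in WT and 0, 0 and 7 in Ocln-KO. Alox15, the 12/15-lipoxygenase of macrophages and eosinophils (chromosome 11, 70344152 to 70352031), had 3, 0 and 0 counts in WT and 0, 4 and 15 in Ocln-KO, so that most of its counts came from Ocln-KO replicate 3. Alox12b (chromosome 11, 69156989 to 69169792) had 0, 1 and 1 counts in WT and 0 in each Ocln-KO library. A count of 0 allows up to 3 counts, or 0.0802 to 0.0942 CPM, and this limit covers counting error only. With no count filter, the edgeR adjusted p values were 0.639, 0.400 and 0.521 for Alox12, Alox15 and Alox12b. No difference in these genes was detectable at this depth. In both genotypes Aloxe3 was counted with Alox12b, the enzyme that precedes it, at or near 0.

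The other genes of the pathway were taken as a list of 26, of which 17 were abundant enough to be tested. Of these, 2 rose and 1 fell (edgeR adjusted p under 0.05), where over all tested genes 3.91% were higher and 5.04% lower. The median log2 fold change of the 17 was 0.27. The genes that rose were Pla2g4a and Ephx3, and the gene that fell was Hpgd.

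Pla2g4a, the cytosolic phospholipase A2 that frees arachidonic acid for lipoxygenases and cyclooxygenases alike, had 20.5, 19.8 and 17.6 CPM in the WT libraries, against 33.9, 28.8 and 42.4 CPM for Ocln-KO. Each Ocln-KO library was clearly above each WT library. Pla2g4a rose by 0.86 on the log2 scale (standard error 0.15, 95% interval from 0.51 to 1.21, edgeR adjusted p = 0.0228). Without Ocln-KO replicate 3 its log2 fold change was 0.70 (edgeR adjusted p = 0.0176), and it lost the call in each of the 3 fits without a WT library, at an adjusted p of 0.0976, 0.0698 and 0.0982 for WT replicates 1 to 3. Hpgd, the dehydrogenase that inactivates prostaglandins and also oxidises hydroxy fatty acids made by lipoxygenases, had 106, 95.4 and 101 CPM in the WT libraries, against 81.9, 66.1 and 68.8 CPM for Ocln-KO. Hpgd fell by 0.48 on the log2 scale (95% interval from -0.72 to -0.24, edgeR adjusted p = 0.0359), and had a log2 fold change of -0.45 (edgeR adjusted p = 0.0484) without Ocln-KO replicate 3. Hpgd also lost the call without each WT library in turn, without Ocln-KO replicate 2 and with total counts only, with an adjusted p of at most 0.134. Ephx3, an epoxide hydrolase of the epidermis that acts in the same skin route as Aloxe3, had 9, 1 and 5 counts in WT and 24, 30 and 41 counts in Ocln-KO. Its log2 fold change of 2.80 (edgeR adjusted p = 0.0403) rests on these few WT counts, and its adjusted p was between 0.0548 and 0.141 with any 1 library left out. Ephx3 and Aloxe3 thus had fold changes of opposite sign.

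**Figure D2:**
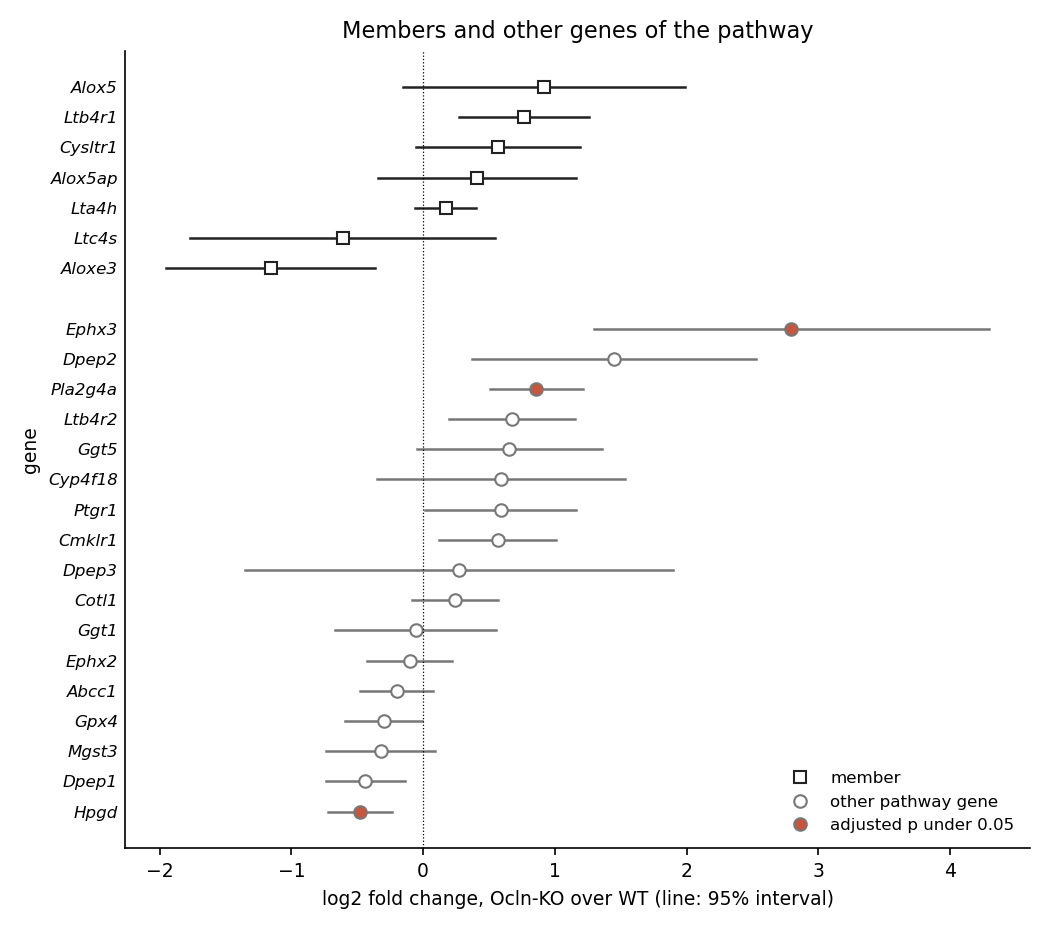
Log2 fold change of Ocln-KO over WT with its 95% interval for the 7 tested lipoxygenase and leukotriene genes (squares) and 17 other genes of the pathway (circles), filled where the adjusted p was under 0.05. Filled symbols are Ephx3, Pla2g4a and Hpgd, and among the squares the intervals of Ltb4r1 and Aloxe3 leave out 0.

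The later steps of the cysteinyl branch did not pass the edgeR test. Ggt1 and Ggt5, gamma-glutamyl transferases that trim leukotriene C4, had log2 fold changes of -0.06 (95% interval from -0.67 to 0.56) and 0.65 (95% interval from -0.05 to 1.36). Without Ocln-KO replicate 3 that of Ggt5 was 0.34. Ggt1 ran from 81.9 CPM in Ocln-KO replicate 1 to 193 CPM in Ocln-KO replicate 3, beyond the WT range of 130 to 151 CPM on either side, and its sign turned to 0.03 with total counts only. Dpep1, a dipeptidase that makes leukotriene E4, had 36.0, 36.0 and 37.9 CPM in the WT libraries, against 22.1, 28.2 and 30.9 CPM for Ocln-KO, without overlap. This is a difference of -0.44 on the log2 scale (95% interval from -0.74 to -0.13, edgeR adjusted p = 0.0750), and -0.54 (edgeR adjusted p = 0.0434) without Ocln-KO replicate 3. With DESeq2 the adjusted p of Dpep1 was 0.0474. Dpep2, a related dipeptidase added after its values were seen, lay in the other direction, with 24, 16 and 12 counts in WT and 31, 33 and 65 in Ocln-KO, again without overlap. Its log2 difference was 1.45 (95% interval from 0.37 to 2.52, edgeR adjusted p = 0.0895), and 1.06 without Ocln-KO replicate 3. The microsomal glutathione transferases Mgst2 and Mgst3 are relatives of Ltc4s. Mgst3 had means of 8.49 ± 1.49 CPM for WT and 6.79 ± 0.408 CPM for Ocln-KO (SD, n = 3 each). Its log2 difference was -0.32 (edgeR adjusted p = 0.276). Mgst2 had 0, 3 and 0 counts in WT and 18, 4 and 2 in Ocln-KO, too few to be tested. The lipoxygenases Alox8 and Alox12e had at most 1 and 4 counts in any library.

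Markers of cells that use this pathway were examined in the same libraries. In bulk tissue, more cells of a type and more RNA per cell cannot be told apart. Of 14 macrophage and monocyte markers, all 14 were tested and had log2 fold changes above 0, with a median of 0.67, and 1 of them, the monocyte chemokine receptor Ccr2, rose (edgeR adjusted p = 0.0313). Over all tested genes, 3.91% were higher at an edgeR adjusted p under 0.05. The summed level of the 14 was 234 to 277 CPM for WT, against 294, 360 and 538 CPM for Ocln-KO replicates 1 to 3. With any 1 WT library left out, no marker of any cell type list passed. Among the Ocln-KO libraries the macrophage sum, Alox5 and Alox5ap were lowest in replicate 1 and highest in replicate 3, while Lta4h, Ltc4s, Cysltr1 and Ltb4r1 were lowest in replicate 2, and single macrophage markers differed in their order (Fcgr1 and Ly6c2 were highest in replicate 2). Of the 7 tested genes, 6 were highest among the Ocln-KO libraries in replicate 3 (35.8% of all tested genes), and 5 were highest there of all 6 libraries (22.8% of all tested genes). Aloxe3 and Ltc4s were the genes not highest there of all 6. Of 12 lymphocyte markers, 6 were tested, all with log2 fold changes above 0. By edgeR, 0 of these had an adjusted p under 0.05, and 4 had an unadjusted p under 0.05 (5723 of all 19691 tested genes). The summed level of the 12 ran from 2.99 to 3.74 CPM for WT and from 6.02 to 11.0 CPM for Ocln-KO.

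Of 11 mast cell and basophil markers, 5 were tested and 2 rose, the mast cell proteases Cpa3, from 23, 13 and 5 counts in WT to 88, 86 and 44 in Ocln-KO, and Cma1, from 7, 9 and 7 to 38, 39 and 30. The shares over all tested genes were 3.91% higher and 5.04% lower (edgeR adjusted p under 0.05). The summed level of the list was instead lower in Ocln-KO, at 40.6 to 42.4 CPM for WT and 34.9 to 39.5 CPM for Ocln-KO. Of the 5 tested markers, 3 had log2 fold changes above 0 and 2 below. The latter, Kit and Gata2, made up most of the sum and were lower without overlap. Their log2 fold changes were -0.40 (edgeR adjusted p = 0.0963) and -0.24 (edgeR adjusted p = 0.142). The defining receptor chains Ms4a2 and Fcer1a had at most 7 counts in any library. Of 12 neutrophil markers, 6 had at most 3 counts in every library, S100a8 and Ly6g among them. The summed level of 119 to 261 CPM for WT and 71.4 to 78.7 CPM for Ocln-KO was nearly all Ltf. Ltf fell and was the only called gene of 3 tested. Csf3r and Mmp8, the others tested, overlapped between genotypes. Their log2 fold changes were 1.30 (edgeR adjusted p = 0.176) and -0.80 (edgeR adjusted p = 0.594). Of 5 eosinophil markers none could be tested, and their summed level was at most 0.414 CPM. The platelet gene Pf4 was listed at 0 in all 6 libraries, as were 2 other of the 7 platelet markers. Of 2 tested, Gp9 and Itga2b, 0 were called by edgeR (0 at an unadjusted p under 0.05). Gp9 was lower in Ocln-KO without overlap, with a log2 fold change of -1.60 (edgeR adjusted p = 0.282). Itga2b overlapped, with -0.075 (edgeR adjusted p = 0.803). Of 5 red blood cell markers, 1 fell, Alas2, and their sum ran from 21.9 to 49.6 CPM for WT and from 6.04 to 13.2 CPM for Ocln-KO. Beside Aloxe3, the epidermal keratinocyte list had a summed level of 1.45 to 3.39 CPM for WT and 2.17 to 3.24 CPM for Ocln-KO, with 0 of its 2 tested markers called by edgeR (0 at an unadjusted p under 0.05). Krt1 had no more than 1 count and Flg and Krt2 were at 0, whereas Krt10 had 41 to 89 counts in every library. Lor, too scarce to be tested, had 3, 2 and 0 counts in WT and 9, 7 and 31 in Ocln-KO, without overlap.

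Epithelial markers moved too. The clear cell list summed to 188 to 267 CPM for WT and 58.8 to 105 CPM for Ocln-KO, with 4 of 6 tested markers lower. The basal cell list summed to 258 to 263 CPM for WT and 287 to 348 CPM for Ocln-KO, with Krt14 of 5 higher. Of the 5 basal markers, 4 had log2 fold changes above 0, while Itga6 was lower without overlap (-0.21, edgeR adjusted p = 0.272). Over all tested genes, 3.91% were higher and 5.04% lower (edgeR adjusted p under 0.05). The principal cell list summed to 18392 to 22347 CPM for WT and 11149 to 15663 CPM for Ocln-KO, most of it Crisp1 and Lcn5. Crisp1 had a log2 fold change of -0.92 (edgeR adjusted p = 0.0855) and Lcn5 of 0.04 (edgeR adjusted p = 0.956). Of the 7 tested markers of this list, 4 had log2 fold changes above 0 and 3 below, with a median of 0.03. Of these 7, 1 was called, Aqp9, which was lower. Of the 9 sperm and spermatid markers, 0 were called by edgeR (0 at an unadjusted p under 0.05). The adipocyte list summed to 5.24 to 9.61 CPM for WT and 0.622 to 3.68 CPM for Ocln-KO. Of its 5 tested markers, 0 were called by edgeR, and 3 had an unadjusted p under 0.05 (5723 of all 19691 tested genes). The part of these cell types in the values of Alox5, Alox5ap, Cysltr1, Ltb4r1 and Aloxe3 was not tested.

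**Figure D3:**
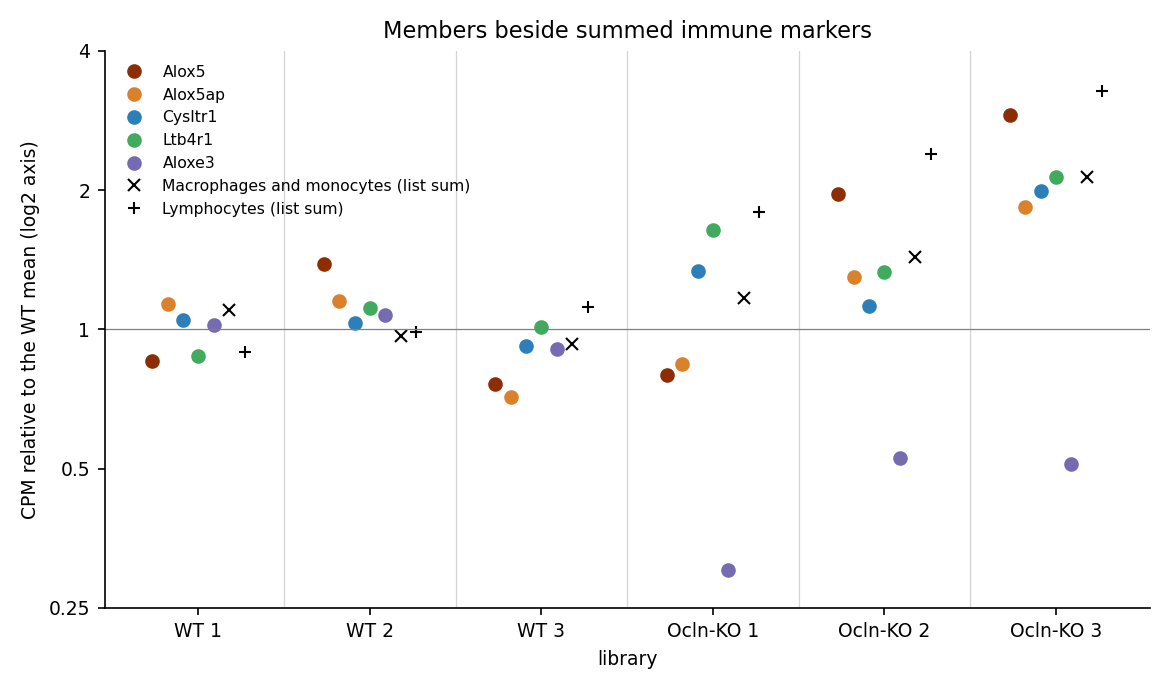
CPM of 5 genes (coloured points) and of the summed macrophage and lymphocyte markers (crosses) in each of the 6 libraries, relative to the mean of the WT libraries on a log2 axis. In Ocln-KO replicate 3 all but Aloxe3 lie above every WT library, in Ocln-KO replicate 1 Alox5 and Alox5ap lie within the WT range, and Aloxe3 lies below every WT library in each Ocln-KO library.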

How the data were processed

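Per the labels, whole epididymis of adult C57BL/6 mice was profiled, 3 libraries of each genotype. As the study's methods describe, the authors depleted total RNA of rRNA, made directional paired-end libraries, sequenced them in a single lane, aligned the reads to GRCm38 with HISAT2 (2.0.4 in the submitters' processing notes) and counted reads per gene with HTSeq (the methods also name RPKM, a unit not used here). The deposited values are the raw count of each gene, without normalization. The counting mode and strand setting are not given in the sources used here.

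Of 32046 genes with a count, edgeR's filterByExpr kept 19691. In R 4.3.3, edgeR 4.0.16 scaled libraries by TMM factors and compared the genotypes unpaired by quasi-likelihood (glmQLFit, glmQLFTest), and Benjamini-Hochberg adjustment covered every gene kept. Standard errors were derived from the F statistic, and 95% intervals from the t quantile of its degrees of freedom. Levels per kilobase use the union of exons in GENCODE M21. Principal components used log2(CPM + 0.1). Alternatives were DESeq2 1.42.0, limma-voom (limma 3.58.1), RLE factors, total counts only, a replicate block, leaving out the filter, a minimum of 10 counts per library throughout, and each library left out.

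Named genes are the 10 members, the other pathway genes that passed the test, a set list of isoenzymes, receptors and enzymes of neighbouring steps (Alox8, Alox12e, Cysltr2, Ltb4r2, Mgst2, Mgst3, Dpep1, Ggt1, Ggt5, Pla2g4a), Ocln and the first markers of each list. Others (Dpep2 and markers or abundant genes such as Lcn5, Lcn8, Rnase10, Gapdh, Flg, Krt2, Krt10, Lor, Ltf, Cpa3 and Alas2) were chosen with their values known. The members and lists were chosen with earlier results of these data known. Total counts per library ran from 30646424 to 38870780.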

Additional observations from a re-analysis of the deposited data

How the results depend on the processing

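Among the 10 genes, the 0 with an adjusted p under 0.05 became 2 with DESeq2 (Ltb4r1 and Aloxe3) and 1 with total counts only (Ltb4r1), and stayed 0 with each library left out in turn. The sign of the log2 fold change of each of the 7 tested genes was the same under all 13 alternatives. With a library left out, the median of the 7 ran from 0.10 (without Ocln-KO replicate 3) to 0.65 (without Ocln-KO replicate 1). Of the other pathway genes, the 3 that passed became 5 with DESeq2, which added Ltb4r2 and Dpep1, and 0 to 3 with a library left out. The log2 fold change of Ggt1, -0.06, became 0.025 under total counts only and ran from -0.379 to 0.214 with a library left out. The calls over all marker lists, 11, became 23 with DESeq2, 20 with no count filter and 0 to 22 with a library left out, and those over all genes, 1762, became 3312 with DESeq2 and 23 to 1692 with a library left out. Total counts only gave 1175 higher and 674 lower genes in place of 770 and 992. Same-numbered libraries did not deviate together (correlations from -0.0530 to -0.0078). With 3 libraries per genotype this cannot exclude that the numbers mark pairs, and the methods speak of 3 WT and Ocln-KO pairs. With a replicate block, 0 of the 10 genes, 0 of the other pathway genes, 0 marker genes and 41 genes in all passed. Of all genes, 23, 230 and 56 passed without WT replicates 1 to 3, and 1657, 562 and 1692 without Ocln-KO replicates 1 to 3. The cause of these changes was not tested. Depth left 3 of the 10 genes, at 15 or fewer counts in any library, too scarce to be tested.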
